A study of Danio rerio with 14 samples.

Results

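The genes described here are 6 chaperones and 1 transcription factor of the zebrafish stress responses. They were chosen by Ensembl identifier as the rows for *hsp70l* (ENSDARG00000055723), *hsp90aa1.1* (ENSDARG00000010478), *hsp90ab1* (ENSDARG00000029150), *hspa8* (ENSDARG00000068992), *hspa5* (ENSDARG00000103846), *hsp90b1* (ENSDARG00000003570) and *xbp1* (ENSDARG00000035622), which makes 7 of the 32520 genes counted. They were followed in RNA-Seq of sorted cranial cells from larvae that carry a mutation in *psmb1*, a gene for a β subunit of the 20S proteasome core. All 7 had enough counts to be tested in both cell types.

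Molecular chaperones bind proteins that are unfolded or misfolded and help them to fold or hand them on for degradation by the proteasome. HSP70 and HSP90 proteins do this in the cytosol, where some members are made at all times and others are induced by heat or by a backlog of misfolded protein, through heat shock factors. The endoplasmic reticulum (ER) has its own HSP70 and HSP90 proteins, whose genes are induced by the unfolded protein response, a set of signalling branches of which the transcription factor XBP1 is one end point. In zebrafish muscle *hsp90aa1.1* is also a developmental gene, since its product folds myosin together with Unc45b.

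Cells were taken at 72 hours postfertilization (hpf) from *psmb1* mutants, homozygous for the hi2939 allele, and from a pool of their wild-type and heterozygous siblings (WH). Cranial *sox10*+ cells were sorted by a *sox10:kaede* reporter, 7000 cells a sample, and cranial *mylz2*+ fast muscle cells by a *mylz2:mCherry* reporter, 1500 cells a sample. Each cell type had 3 mutant and 4 WH samples, labelled as biological replicates, and each sample pooled 20 to 25 heads. The hi2939 allele is a viral insertion in the first intron that leaves some full-length transcript, the *kaede* reporter also marks cells outside the cranial neural crest such as those of the ear, and the WH pool holds carriers of the mutation. Every sample was raised at 28.5 °C and dissociated with liberase at 37 °C for 30 minutes before sorting. No sample was left without this step, so what it added to the level of heat-inducible genes cannot be told apart from their level in the larva.

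The libraries held 59318933 to 72034939 counts in *sox10*+ mutants and 54824619 to 62057318 in *sox10*+ WH, and 83947537 to 103563447 in *mylz2*+ mutants and 69357630 to 78521766 in *mylz2*+ WH. Levels are counts per 1000000 after TMM scaling of the library sizes (TMM CPM), and a floor of 3 counts stood for 0.029 to 0.0547 CPM of a library total. A gene is called where its adjusted p was under 0.05 in the quasi-likelihood test of edgeR, adjusted by Benjamini and Hochberg's method over all genes tested, and differences are log2 values, mutant minus WH. Scaling by library totals alone moved the median difference of all genes to 0.12 in *sox10*+ cells, where it was -0.02 under TMM, and to 0.41 in *mylz2*+ cells, where it was 0.01. It also moved the share of calls that were higher in mutants to 71.5% from 56.9% in *sox10*+ cells and to 79.5% from 48.0% in *mylz2*+ cells, so directions below are relative to the bulk of genes. The sorted cells carried their own markers. *SOX10* had 890.7 to 1078 CPM of the library total in *sox10*+ mutants and 1131 to 1244 in *sox10*+ WH, but 3.38 or less in *mylz2*+ mutants and 5.66 or less in *mylz2*+ WH. The 19 fast muscle markers summed to 145390 to 209163 CPM in *mylz2*+ mutants and 217156 to 240406 in *mylz2*+ WH. They summed to 1189 or less in *sox10*+ mutants and 2887 or less in *sox10*+ WH. The reporter's own gene, *mylpfa* (*mylz2*), was not matched by symbol. Epidermis markers summed to 4519 to 5878 in *mylz2*+ mutants and 2468 to 4675 in *mylz2*+ WH. In *sox10*+ cells they summed to 2883 to 3885 and 2254 to 4470. In these bulk samples, fewer cells of a type and less RNA per cell cannot be told apart.

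*psmb1* (PSMB1 in the symbol table, ENSDARG00000009640) was at 90.5, 69.2 and 87.6 TMM CPM in the *sox10*+ mutants, against 57.6, 81.9, 87.9 and 92.4 in *sox10*+ WH. In *mylz2*+ cells it was at 85.1, 68.1 and 83.4 TMM CPM in mutants, against 124, 164, 147 and 133.5 in WH. Its level thus separated the genotypes only in *mylz2*+ cells, where it fell by 0.85 ± 0.13 (SE, adjusted p = 0.00137 with edgeR). In *sox10*+ cells the difference was 0.04 ± 0.20 (adjusted p = 0.958 with edgeR), and the transcript does not check the genotype labels there. The paper reports less *psmb1* in mutants by qRT-PCR, which used RNA of larvae or dissected parts and not of sorted cells. Most other proteasome genes differed between the genotypes in both cell types. Of all genes tested, edgeR called 2.10% higher and 1.59% lower in *sox10*+ cells, and 10.8% and 11.7% in *mylz2*+ cells. The list of proteasome subunits had 51 genes tested and also holds regulators and assembly factors. Of the 51, 44 rose and 0 fell in *sox10*+ mutants, with a median difference of 1.88, and 47 rose and 1 fell, *psmb1* itself, in *mylz2*+ mutants, with a median of 1.41. Among them *PSMD10*, an assembly factor of the regulatory particle, was at 69.1 to 81.2 TMM CPM in *sox10*+ mutants and 9.09 to 19.5 in *sox10*+ WH, and at 83.8 to 99.6 in *mylz2*+ mutants and 14.7 to 22.3 in *mylz2*+ WH.

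Of the 7 genes, 4 rose and 1 fell in *mylz2*+ mutants, where 10.8% of all 20413 genes tested were called higher and 11.7% lower. The cytosolic *hsp90aa1.1*, *hsp90ab1* and *hspa8* and the ER chaperone *hspa5* were the 4 that rose, by 1.34-fold to 2.33-fold, and *xbp1* fell. In *sox10*+ mutants 0 of the 7 were called by edgeR, against 2.10% of 21476 genes called higher and 1.59% lower. There, 4 of the 7 had an unadjusted p under 0.05, as did 16.7% of all genes tested. DESeq2's Wald test called 1, *hspa8*, and of all genes it called 1108 higher and 1336 lower, against 451 and 342 by edgeR. Mutant and WH libraries did not overlap for 3 of the 7 in *sox10*+ cells, against 18.8% of all genes, and for 6 of the 7 in *mylz2*+ cells, against 34.1% of all genes.

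**Figure D1:**
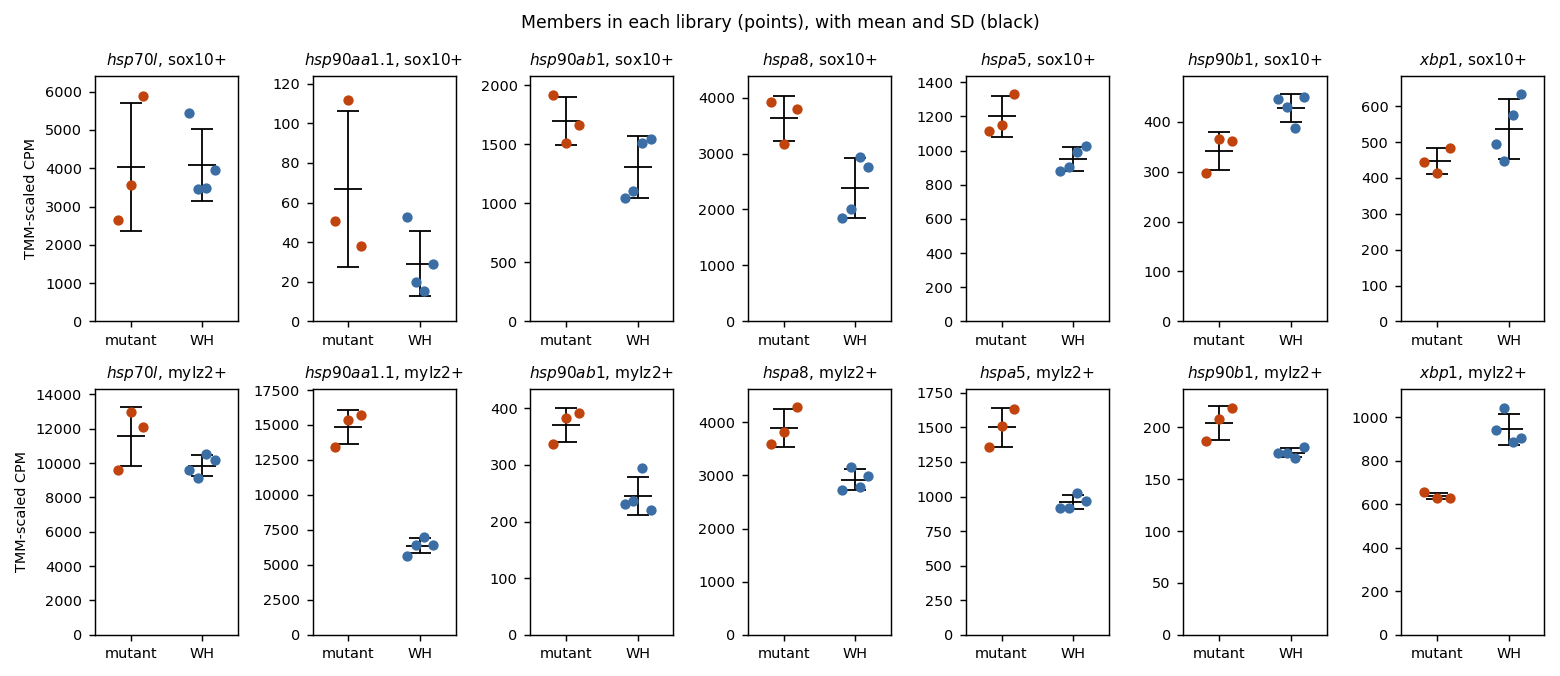
TMM CPM of the 7 genes in each library (points), with the mean and SD in black, for *sox10*+ cells in the upper panels and *mylz2*+ cells in the lower ones; every axis starts at 0. In *mylz2*+ cells the mutant points lie apart from the WH points for every gene but *hsp70l*, below them for *xbp1* and above them for the others.

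*hsp70l* encodes a heat-inducible cytosolic HSP70. In *sox10*+ mutants of replicates 1, 3 and 4 it was at 2641, 3559.8 and 5874 TMM CPM, against 5443, 3451.5, 3473 and 3955 in *sox10*+ WH of replicates 1 to 4. The mutants held both the lowest and the highest library, and WH replicate 1 stood almost as high as mutant replicate 4. The difference was -0.02 ± 0.28 with a 95% interval of -0.64 to 0.60 (edgeR, adjusted p = 0.987), and its sign turned when library totals were used (0.11) or when WH replicate 1 (0.16), mutant replicate 1 (0.21) or mutant replicate 3 (0.06) was left out. In *mylz2*+ mutants of replicates 1, 2 and 4 it was at 9602.5, 12944 and 12096 TMM CPM, against 9597, 9111, 10505 and 10176 in *mylz2*+ WH. Mutant replicate 1 lay among the WH libraries and the other mutants above them. The difference there was 0.23 ± 0.14 with an interval of -0.07 to 0.53 (edgeR, adjusted p = 0.288). Under library totals it was 0.63 and called (edgeR, adjusted p = 0.0072), where the median of all genes was 0.41.

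Reads from *hsp70l* may be shared with its close copies *hsp70.1* (ENSDARG00000029688) and *hsp70.3* (ENSDARG00000021924), named for that reason after their values were seen, and how such reads were counted is not given in the sources used here. The copies differed by 0.21 ± 0.22 and 0.16 ± 0.20 between *sox10*+ mutants and WH, neither called (adjusted p = 0.75 and 0.807 with edgeR). In *mylz2*+ cells both differed by 0.44 ± 0.12 and were called (adjusted p = 0.0241 and 0.0221). Whether *hsp70l* and its copies differ in their response was not tested.

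*hsp90aa1.1*, the muscle HSP90, rose most of the 7 genes in *mylz2*+ mutants. It was at 13450.0, 15374 and 15691 TMM CPM in *mylz2*+ mutants, against 5658, 6421, 7019 and 6403 in *mylz2*+ WH. Every mutant library was well above every WH library, and the spread within each genotype was small. The difference was 1.22 ± 0.13 (interval 0.94 to 1.5), or 2.33-fold, with an adjusted p of 0.000131 from edgeR. In *sox10*+ cells the gene was rare, at 50.8, 112 and 38.2 TMM CPM in mutants, against 52.5, 19.7, 15.6 and 28.9 in WH. WH replicate 1 overlapped the mutants. The difference there was 1.2 ± 0.47 with a wide interval of 0.16 to 2.24, and it was not called (adjusted p = 0.222 with edgeR). It was 0.61 without mutant replicate 3 and 1.66 without WH replicate 1, the lowest and highest of the 7 fits that left out a library, with adjusted p-values of 0.658 and 0.0772.

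The 2 *sox10*+ libraries with the most *hsp90aa1.1* in their genotype were also those with the highest sums of fast muscle markers. Of the 19 markers the myoglobin gene *mb* was left out after its values were seen, since it was lower in *mylz2*+ than in *sox10*+ cells. The other 18 summed to 191, 913 and 70.19 CPM of the library total in *sox10*+ mutants of replicates 1, 3 and 4, against 2754, 415, 566 and 795 in *sox10*+ WH of replicates 1 to 4. Over both genotypes the order differed, since mutant replicate 3 held the most *hsp90aa1.1* and WH replicate 1 the highest sum. The part of muscle RNA in the *sox10*+ level of *hsp90aa1.1* was not tested. In *mylz2*+ cells the same 18 markers summed to 145387.5 to 209154.8 in mutants and 217154 to 240403 in WH. Of the 18, 12 fell and 0 rose in mutants, against 11.7% of all genes called lower and 10.8% higher, while *hsp90aa1.1* rose. Its tandem copy *HSP90AA1* (ENSDARG00000024746), with which it may share reads and which was also named after its values were seen, differed by 0.87 ± 0.28 in *sox10*+ cells (edgeR, adjusted p = 0.128) and rose by 0.50 ± 0.13 in *mylz2*+ mutants (adjusted p = 0.0221).

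*hsp90ab1*, the HSP90 made in most cells, was at 337, 382 and 392 TMM CPM in *mylz2*+ mutants, against 230.3, 237, 295 and 221 in *mylz2*+ WH. The genotypes did not overlap, with WH replicate 3 nearest to the mutants. It rose by 0.59 ± 0.13 (interval 0.31 to 0.87), or 1.51-fold (edgeR, adjusted p = 0.00722). In *sox10*+ mutants it was at 1919, 1514 and 1668 TMM CPM, against 1049.6, 1108, 1515 and 1547 in *sox10*+ WH. WH replicates 3 and 4 reached the level of the lowest mutant. The difference was 0.38 ± 0.18 (interval -0.03 to 0.79) and was not called (edgeR, adjusted p = 0.345).

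*hspa8* encodes the constitutive cytosolic HSP70. In *mylz2*+ mutants it was at 3582.5, 3814 and 4285 TMM CPM, against 2734.5, 3158, 2773.5 and 2998 in *mylz2*+ WH, so every mutant was above every WH library. It rose by 0.42 ± 0.12 (interval 0.16 to 0.68), or 1.34-fold (edgeR, adjusted p = 0.0278). This call was lost when mutant replicate 4 (adjusted p = 0.0669) or WH replicate 1 (0.0717), 3 (0.0756) or 4 (0.0657) was left out, with differences of 0.32 to 0.46 over the 7 such fits. In *sox10*+ mutants the gene was at 3921, 3165 and 3792 TMM CPM, against 1853, 2005, 2937 and 2752 in *sox10*+ WH. All mutants were higher than all WH libraries here too. The difference was 0.60 ± 0.19 (interval 0.17 to 1.04), which edgeR did not call (adjusted p = 0.132) and DESeq2's Wald test did (difference 0.59, adjusted p = 0.0322).

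A second gene that the symbol table names *HSPA8* (ENSDARG00000037403), one of the HSP70 list and a possible sharer of reads with *hspa8*, changed far more. It was at 431.5, 303.0 and 467 TMM CPM in *sox10*+ mutants, against 7.63, 5.21, 0.138 and 8.35 in *sox10*+ WH. In *mylz2*+ cells it was at 881, 1067 and 1219 TMM CPM in mutants, against 98.1, 169, 189.6 and 137 in WH. WH replicate 3 of the *sox10*+ cells stood lowest, close to the floor of 3 counts, and the genotypes did not overlap in either cell type. The difference was 6.23 ± 0.89 in *sox10*+ cells (edgeR, adjusted p = 0.0056) and 2.83 ± 0.21 in *mylz2*+ cells (adjusted p = 3.53e-05).

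*hspa5* encodes BiP, the HSP70 of the ER and a much used readout of the unfolded protein response. In *mylz2*+ mutants it was at 1356, 1511 and 1634 TMM CPM, against 920.5, 916, 1026 and 969.7 in *mylz2*+ WH. The lowest mutant was clearly above the highest WH library. It rose by 0.65 ± 0.11 (interval 0.40 to 0.89), or 1.57-fold (edgeR, adjusted p = 0.00212). In *sox10*+ mutants it was at 1114, 1152 and 1334 TMM CPM, against 880.5, 906, 994 and 1028.5 in *sox10*+ WH. The genotypes did not overlap, but the gap between them was small. The difference of 0.33 ± 0.14 (interval 0.03 to 0.64) was not called (edgeR, adjusted p = 0.254).

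*hsp90b1* encodes Grp94, the HSP90 of the ER. In *mylz2*+ mutants it was at 186.5, 208 and 219 TMM CPM, against 175.5, 175, 170.3 and 181 in *mylz2*+ WH. The mutants lay just above the WH libraries, with a difference of 0.22 ± 0.10 and an interval of -0.004 to 0.44 (edgeR, adjusted p = 0.158). Under library totals the difference was 0.62 and called (adjusted p = 0.0016). In *sox10*+ mutants it was at 298, 366 and 362 TMM CPM, against 444.5, 429.5, 386 and 449 in *sox10*+ WH. Here the mutants lay below the WH libraries without overlap. The difference was -0.32 ± 0.14 (interval -0.64 to -0.01) and was not called (edgeR, adjusted p = 0.285).

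*xbp1* was the gene of the 7 that fell. In *mylz2*+ mutants it was at 656.5, 631 and 627 TMM CPM, against 944, 1045, 886 and 905 in *mylz2*+ WH. All mutants were below all WH libraries and close to each other. It fell by 0.57 ± 0.11 on the log2 scale (interval -0.80 to -0.33), a ratio of 0.676 (edgeR, adjusted p = 0.00372). Under library totals the difference was -0.16 and no longer called (adjusted p = 0.255), while the median of all genes stood at 0.41. In *sox10*+ mutants it was at 445, 413 and 484 TMM CPM, against 495, 446, 574 and 635 in *sox10*+ WH. The genotypes overlapped, and the difference of -0.27 ± 0.16 (interval -0.62 to 0.09) was not called (edgeR, adjusted p = 0.485). Gene counts do not separate the spliced and unspliced forms of *xbp1* mRNA, of which the spliced one codes for the active factor.

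**Figure D2:**
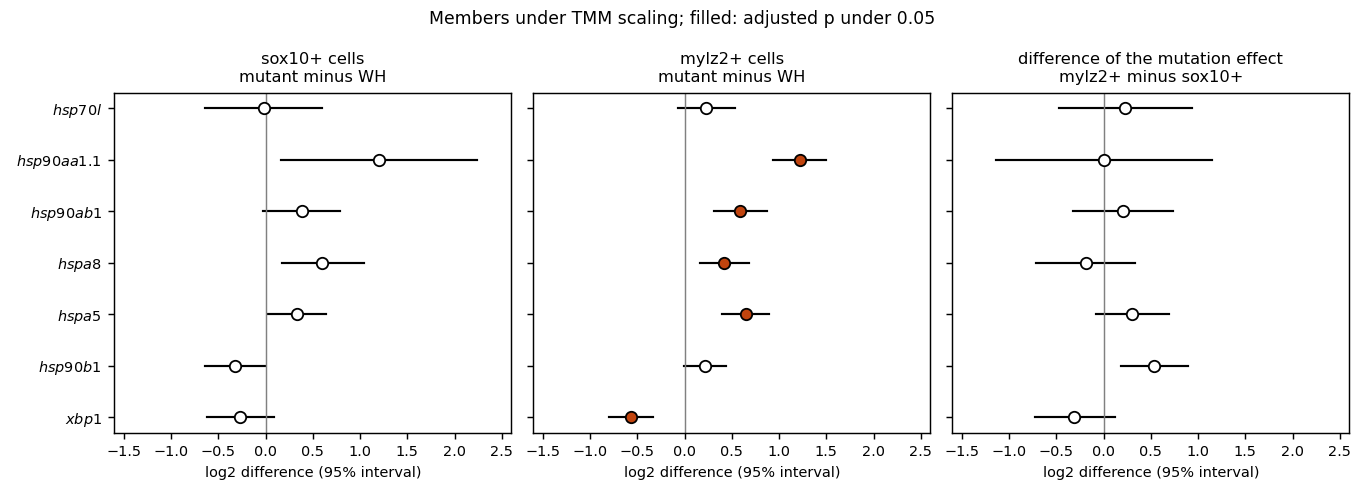
Log2 difference of each gene between mutants and WH in *sox10*+ cells (left) and *mylz2*+ cells (middle), and the difference of these effects (right), as points with 95% intervals; filled points have an adjusted p under 0.05. In *mylz2*+ cells 5 points are filled, and in the other panels none.

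A single fit of the 14 libraries asked whether the effect of the mutation on a gene differed between cell types, as *mylz2*+ effect minus *sox10*+ effect. Of the 7 genes 0 were called by edgeR, where 0.508% of 23232 genes were called with a positive and 1.02% with a negative difference of effects. *hsp90b1* was nearest, with a difference of 0.53 ± 0.17 (interval 0.18 to 0.89) and an adjusted p of 0.135. It was the 1 gene with an unadjusted p under 0.05, as had 14.1% of all genes, and the 1 called by DESeq2's Wald test (adjusted p = 0.0387) and under library totals (0.81, adjusted p = 0.0223). For *hsp90aa1.1* the effects differed by 0.005 ± 0.53, with an interval of -1.14 to 1.15 that leaves room for a large difference either way. The intervals were -0.47 to 0.93 for *hsp70l*, -0.32 to 0.73 for *hsp90ab1*, -0.72 to 0.33 for *hspa8*, -0.08 to 0.69 for *hspa5* and -0.73 to 0.12 for *xbp1*. So the calls in *mylz2*+ cells alone do not show that these genes responded there and not in *sox10*+ cells.

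Levels were also compared between the cell types. On a TMM scale common to the 14 libraries, *hsp90aa1.1* was at 21484 ± 1804 CPM in *mylz2*+ mutants and 45.8 ± 26.5 in *sox10*+ mutants (SD, n = 3 each), and at 9308.5 ± 816 in *mylz2*+ WH and 19.9 ± 10.9 in *sox10*+ WH (n = 4 each). The difference, *mylz2*+ minus *sox10*+, was 8.87 ± 0.56 in mutants and 8.87 ± 0.48 in WH (edgeR, adjusted p = 4.77e-08 and 3.07e-09). Its order of levels was *mylz2*+ mutants, *mylz2*+ WH, *sox10*+ mutants and *sox10*+ WH, and only the last pair overlapped. Of the 7 genes, 5 were called higher and 1 lower in *mylz2*+ cells in mutants, where 17.0% of 23232 genes were called higher and 16.3% lower, and the same in WH, where 20.5% were called higher and 21.7% lower. Cell type, reporter line and the number of cells sorted cannot be told apart in this comparison.

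*hsp70l* was at 16721 ± 2551 CPM in *mylz2*+ mutants and 2769 ± 1171 in *sox10*+ mutants, and at 14376 ± 879.9 in *mylz2*+ WH and 2798 ± 591 in *sox10*+ WH (SD, n = 3 each for mutants and n = 4 each for WH, here and below). It was higher in *mylz2*+ cells by 2.59 ± 0.26 in mutants and 2.36 ± 0.23 in WH (edgeR, adjusted p = 2.48e-06 and 6.52e-07), and within each cell type its genotypes overlapped. *hspa8* was at 5638 ± 528 CPM in *mylz2*+ mutants and 2491 ± 297 in *sox10*+ mutants, and at 4258 ± 306.5 in *mylz2*+ WH and 1647 ± 403 in *sox10*+ WH. It was higher in *mylz2*+ cells by 1.18 ± 0.19 in mutants and 1.37 ± 0.16 in WH (edgeR, adjusted p = 0.000179 and 6.95e-06), and no neighbours in the order of its 4 groups overlapped. The constitutive HSP90 gene went the other way. *hsp90ab1* was at 537 ± 43.7 CPM in *mylz2*+ mutants and 1168 ± 145 in *sox10*+ mutants, and at 359 ± 47.9 in *mylz2*+ WH and 900.1 ± 200.4 in *sox10*+ WH. It was lower in *mylz2*+ cells by differences of -1.12 ± 0.19 in mutants and -1.33 ± 0.16 in WH (edgeR, adjusted p = 0.000255 and 8.87e-06). Its order was *sox10*+ mutants, *sox10*+ WH, *mylz2*+ mutants and *mylz2*+ WH, in which the *sox10*+ pair overlapped.

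Of the ER genes, *hspa5* was at 2172 ± 206 CPM in *mylz2*+ mutants and 824 ± 88.1 in *sox10*+ mutants, and at 1399 ± 73.3 in *mylz2*+ WH and 656 ± 63.7 in *sox10*+ WH. *xbp1* was at 924 ± 20.8 CPM in *mylz2*+ mutants and 307 ± 27.6 in *sox10*+ mutants, and at 1379.5 ± 107 in *mylz2*+ WH and 370.5 ± 65.4 in *sox10*+ WH. Both were called higher in *mylz2*+ cells, *hspa5* by 1.40 ± 0.14 in mutants and 1.09 ± 0.12 in WH (edgeR, adjusted p = 1.81e-06 and 2.35e-06) and *xbp1* by 1.59 ± 0.15 in mutants and 1.90 ± 0.13 in WH (1.67e-06 and 2.96e-08). *hspa5* was higher in the mutants of each cell type without overlap, and *xbp1* in the WH of each, with overlap in *sox10*+ cells. *hsp90b1* showed the smallest gap between cell types, at 296 ± 24.5 CPM in *mylz2*+ mutants and 235 ± 26.2 in *sox10*+ mutants, and at 256 ± 7.17 in *mylz2*+ WH and 294 ± 20.2 in *sox10*+ WH. It was not called in mutants (0.34 ± 0.12, edgeR, adjusted p = 0.0514; 0.0371 to 0.0497 without *mylz2*+ mutant replicate 1, *sox10*+ WH replicate 3 or *sox10*+ WH replicate 4) or in WH (-0.20 ± 0.11, adjusted p = 0.162). In mutants DESeq2's Wald test called it higher (0.36, adjusted p = 0.0129). So did edgeR with RLE factors (adjusted p = 0.0458) or without the 100 most abundant genes in the scaling (0.0491), while library totals turned its sign, as given below. *mylz2*+ mutants and *sox10*+ WH overlapped at the upper end of its levels, and *mylz2*+ WH and *sox10*+ mutants at the lower end.

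These differences depend on what the libraries are scaled to. Under library totals the median difference of all genes between the cell types was -1.03 in mutants and -1.41 in WH, where TMM gave -0.11 and -0.21. The share of calls that were higher in *mylz2*+ cells was then 18.3% against 51.0% under TMM in mutants, and 15.5% against 48.6% in WH. *hsp70l* (1.69 in mutants and 1.17 in WH), *hsp90aa1.1* (7.93 and 7.69) and *xbp1* (0.67 and 0.70) were still called higher and *hsp90ab1* (-2.05 and -2.52) lower. *hspa8* was no longer called (0.25 and 0.17, adjusted p = 0.241 and 0.318). *hspa5* was called in mutants (0.48, adjusted p = 0.00663) and had the opposite sign without a call in WH (-0.10, adjusted p = 0.441), and *hsp90b1* was called lower in both (-0.59 and -1.39, adjusted p = 0.00114 and 5.75e-08).

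**Figure D3:**
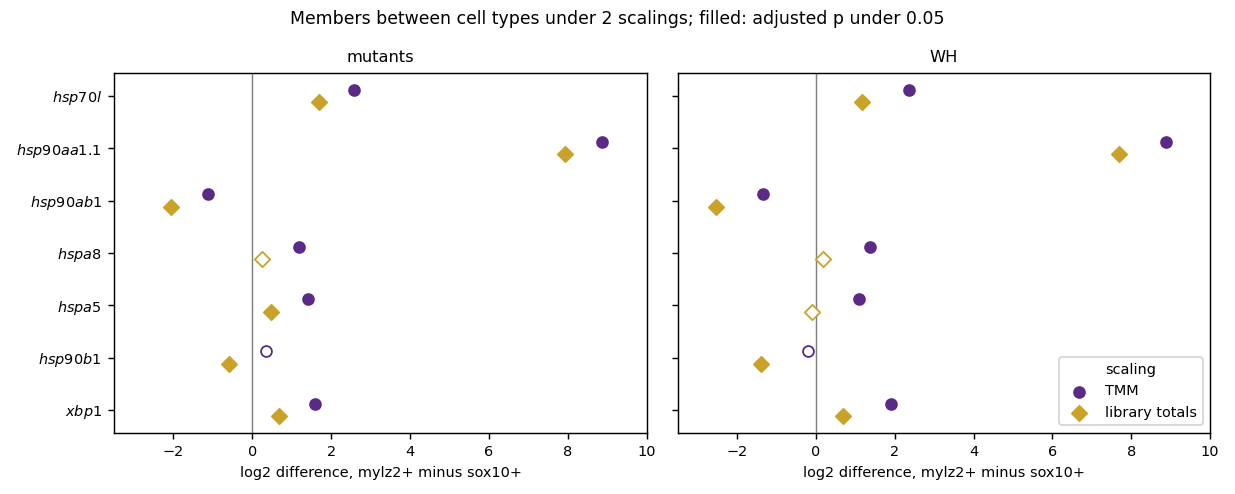
Log2 difference of each gene between *mylz2*+ and *sox10*+ cells in mutants (left) and WH (right), under TMM scaling (circles) and library totals (diamonds); filled symbols have an adjusted p under 0.05. *hsp70l*, *hsp90aa1.1* and *xbp1* stay filled above 0 and *hsp90ab1* below 0 under both scalings, while *hsp90b1* in mutants and *hspa5* in WH change sides.

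Together the 7 genes took 3.49% to 4.44% of all counts in *mylz2*+ mutants and 1.7% to 2.1% in *mylz2*+ WH, and 1.1% to 1.36% in *sox10*+ mutants and 0.847% to 0.992% in *sox10*+ WH. Genotypes did not overlap in either cell type on this unscaled measure. It sums genes of different length, and levels were not compared between genes because no gene lengths of the authors' annotation were used here.

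The other genes of the same machines were read from lists by symbol, of which 350 of 368 symbols were matched. In *mylz2*+ mutants, the cytosolic HSP70 machine (HSP70s, J proteins and exchange factors) had 19 of 32 genes called higher and 2 lower, with a median difference of 0.50, and the cytosolic HSP90 machine had 13 of 21 called higher and 2 lower, with a median of 0.59. In *sox10*+ mutants the same lists had 7 and 8 genes called higher and 0 lower, with medians of 0.32 and 0.81. These lists hold 2 each of the 7 genes. The HSP70 list also holds *HSPA13* and the HSP90 list *tsc22d3*, which are not cytosolic chaperone genes. The medians of all genes were 0.01 in *mylz2*+ and -0.02 in *sox10*+ cells. Of all genes tested, edgeR called 10.8% higher and 11.7% lower in *mylz2*+ cells, and 2.10% and 1.59% in *sox10*+ cells. By DESeq2's Wald test 10 genes of each list were higher in *sox10*+ mutants, with 0 of the HSP70 list and 1 of the HSP90 list lower. DESeq2 called more of all genes there, 1108 higher and 1336 lower, against 451 and 342 by edgeR. The 2 lists with those of small heat shock proteins and chaperonins had 21 of 84 genes called higher in *sox10*+ mutants, but 9 without mutant replicate 1 or 4 and 10 without mutant replicate 3 or WH replicate 2. With the 7 genes taken out, these 4 lists had 21 of 80 called higher and 0 lower in *sox10*+ mutants, and 44 of 82 higher and 6 lower in *mylz2*+ mutants.

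*HSPH1* (ENSDARG00000019874), an HSP110 that exchanges the nucleotide of HSP70, was at 72.4, 82.7 and 92.9 TMM CPM in *sox10*+ mutants and 30.5, 15.6, 10.1 and 16.4 in *sox10*+ WH, and at 90.4, 110.3 and 124 in *mylz2*+ mutants and 14.3, 30.8, 29.7 and 22.4 in *mylz2*+ WH. It rose by 2.19 ± 0.33 in *sox10*+ and 2.16 ± 0.24 in *mylz2*+ mutants (edgeR, adjusted p = 0.00742 and 0.000197). *HSPA4L* (ENSDARG00000053544), of the same family, rose by 2.07 ± 0.30 and 2.21 ± 0.32 (0.00584 and 0.000862). Both genes were higher in every mutant than in every WH library. The 2 genes of the list that fell in *mylz2*+ mutants were the J proteins *dnajb6b* (ENSDARG00000020953, by 1.15) and *DNAJB5* (ENSDARG00000052881, by 0.54), and *DNAJB5* was not called under library totals (-0.14, adjusted p = 0.564).

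Of the HSP90 cochaperones, *STIP1* (ENSDARG00000004906), which links HSP70 to HSP90, was at 418.5, 431 and 466 TMM CPM in *sox10*+ mutants and 180.0, 162, 203.5 and 140.2 in *sox10*+ WH, and at 873, 994 and 1003 in *mylz2*+ mutants and 288, 395, 410.3 and 359 in *mylz2*+ WH. It rose by 1.35 ± 0.16 in *sox10*+ and 1.40 ± 0.14 in *mylz2*+ mutants (edgeR, adjusted p = 0.00185 and 0.000105). *AHSA1* (ENSDARG00000100317), which speeds the ATPase of HSP90, rose by 1.41 ± 0.18 in *sox10*+ mutants (0.00298). *UNC45B* (ENSDARG00000008433), the myosin chaperone that works with *hsp90aa1.1*, was at 1128, 1135 and 1202.5 TMM CPM in *mylz2*+ mutants and 611, 742, 714 and 818 in *mylz2*+ WH, and rose by 0.68 ± 0.12 (0.00254). In *sox10*+ mutants its call (1.83 ± 0.42, 0.0445) was lost when any library but WH replicate 1 was left out, with an adjusted p of up to 0.188. *SMYD1* (ENSDARG00000009280), a muscle methyltransferase that binds myosin, and *FKBP5* (ENSDARG00000028396), an HSP90 cochaperone induced by glucocorticoids, were the 2 of the list that fell in *mylz2*+ mutants, by 0.90 and 2.02.

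The list named for chaperonins had 23 genes tested and is 1 of the 4 lists called cytosolic here. It holds chaperonin genes, whose products fold actin and tubulin in the cytosol and imported proteins in mitochondria. Prefoldin genes and other chaperone genes of mitochondria, such as *HSPA9* and *TRAP1*, are also in it. Of these 23 genes, 14 rose and 0 fell in *mylz2*+ mutants, and 5 rose and 0 fell in *sox10*+ mutants. *CCT3* (ENSDARG00000016173), a subunit of the cytosolic chaperonin, rose by 1.41 ± 0.12 in *mylz2*+ and 1.18 ± 0.16 in *sox10*+ mutants (edgeR, adjusted p = 4.87e-05 and 0.00358). Of the small heat shock proteins, 1 of 10 rose and 2 fell in *mylz2*+ mutants, and 1 of 8 rose and 0 fell in *sox10*+ mutants. Beside them, 10.8% of all genes were called higher and 11.7% lower in *mylz2*+ cells, and 2.10% and 1.59% in *sox10*+ cells, and with so few genes nothing is read from the counts. The 2 that fell were *HSPB7* (ENSDARG00000104441), a muscle gene that fell by 1.1, and *HSPB2* (ENSDARG00000052450), which fell by 0.86 and lost its call without mutant replicate 1 or 2 or WH replicate 2 or 4, with an adjusted p of up to 0.102 in edgeR. Of the heat shock factors and their partners, 2 of 4 rose and 1 fell, *hsbp1b*, in *mylz2*+ mutants, and 1 of 6 rose and 0 fell in *sox10*+ mutants. The call of *hsbp1b* was lost under library totals and without mutant replicate 2 (edgeR, adjusted p = 0.0608 without it). *HSF2* (ENSDARG00000053097), a heat shock factor, rose by 1.18 ± 0.18 in *mylz2*+ mutants (edgeR, adjusted p = 0.00126), and *hsf1* (ENSDARG00000008818), the main factor of the heat shock response, by 0.90 ± 0.20 (0.00953; 0.0538 without mutant replicate 1). In *sox10*+ mutants *hsf1* was called at 1.17 ± 0.27 (adjusted p = 0.0443), a call that was lost when any library but WH replicate 4 was left out, with values of up to 0.16.

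The ER lists were read in the same way. Of 47 ER chaperones and folding enzymes, 13 rose and 2 fell in *mylz2*+ mutants, with a median difference of 0.19, against 10.8% of all genes called higher and 11.7% lower. In *sox10*+ mutants 0 of 46 rose and 0 fell in edgeR, near the shares of all genes (2.10% and 1.59%), with a median of -0.15. Of the 46, 13 had an unadjusted p under 0.05, against 16.7% of all genes tested, and DESeq2's Wald test called 0 higher and 5 lower. Among all genes DESeq2 called 1108 higher and 1336 lower there, against 451 and 342 by edgeR. Both lists hold *hspa5* and *hsp90b1*. *SERPINH1* (ENSDARG00000019949), the collagen chaperone HSP47, was at 266, 292 and 257 TMM CPM in *mylz2*+ mutants and 81.7, 95.6, 140.3 and 100.4 in *mylz2*+ WH, and rose by 1.38 ± 0.17 (edgeR, adjusted p = 0.00032). *CLGN* (ENSDARG00000009315), a relative of calnexin, rose by 1.31 ± 0.13 (0.000123). *CRELD1* (ENSDARG00000006990, listed as *creld1b*) also rose. Its difference was 1.23 to 1.51 over the 7 fits that left out a library (edgeR, adjusted p = 0.0016 to 0.0103). The 2 that fell were *creld1a* (ENSDARG00000099989, by 1.1) and *pdia2* (ENSDARG00000018263), named after its values were seen, which had 0 counts in all *mylz2*+ mutants and 1 to 95 in *mylz2*+ WH. In *sox10*+ cells *pdia2* had 0 to 2 counts in mutants and 0 to 283 in WH, so its WH counts were uneven in both cell types, and nothing is read from its call. *HYOU1* (ENSDARG00000013670), the exchange factor of *hspa5*, did not pass the test in *mylz2*+ (0.16 ± 0.12, adjusted p = 0.418) or *sox10*+ cells (-0.04 ± 0.15, 0.947) and was also chosen after its values were seen. Under library totals 21 of the list were called higher in *mylz2*+ mutants, a scaling that moved the bulk of all genes up there, so nothing is read from that count.

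In ER-associated degradation, the route by which misfolded ER proteins reach the proteasome, 7 of 25 genes rose and 3 fell in *mylz2*+ mutants, and 4 of 25 rose and 0 fell in *sox10*+ mutants. Of all genes tested, 10.8% were called higher and 11.7% lower in *mylz2*+ cells, and 2.10% and 1.59% in *sox10*+ cells. The genes that rose most were those of the cytosolic extraction complex. *VCP* (ENSDARG00000020008), its ATPase, was at 1549, 1475 and 1482 TMM CPM in *sox10*+ mutants and 365, 418, 502.5 and 383 in *sox10*+ WH, and at 1739, 1781.5 and 1755 in *mylz2*+ mutants and 656, 604, 670.1 and 649.6 in *mylz2*+ WH. It rose by 1.85 ± 0.15 and 1.45 ± 0.10 (edgeR, adjusted p = 0.000391 and 3.27e-05). Its partners *UFD1* (ENSDARG00000010051; 2.32 ± 0.22 and 1.78 ± 0.12) and *NPLOC4* (ENSDARG00000100487; 1.62 ± 0.18 and 1.85 ± 0.13) rose in both cell types as well. The 3 that fell in *mylz2*+ mutants are near the share of all genes called lower, and no place in the cell is read from them. They were *HERPUD1* (ENSDARG00000024314, by 0.64), *SEL1L* (ENSDARG00000004581, by 0.58) and *os9* (ENSDARG00000020301, by 0.55). Under library totals 0 of the list fell, and *SEL1L* was not called without mutant replicate 4 (edgeR, adjusted p = 0.0501).

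Among 17 sensors and transcription factors of the unfolded protein response, which include *xbp1*, 1 rose and 2 fell in *mylz2*+ mutants, and 1 rose and 0 fell in *sox10*+ mutants. These edgeR counts are near the shares of all genes, 10.8% higher and 11.7% lower in *mylz2*+ cells and 2.10% and 1.59% in *sox10*+ cells. In *sox10*+ cells 5 of the 17 had an unadjusted p under 0.05, against 16.7% of all genes tested. DESeq2's Wald test called 4 higher and 0 lower there. Of all genes it called 1108 higher and 1336 lower, against 451 and 342 by edgeR. *CEBPB* (ENSDARG00000042725), a transcription factor of several stress responses, rose by 1.01 ± 0.12 in *mylz2*+ mutants (edgeR, adjusted p = 0.000248). It was also the 1 gene called in *sox10*+ mutants (1.54 ± 0.35, 0.0426), where the call was lost without any 1 of the mutants or without WH replicate 2 or 3, with values of up to 0.148. The 2 that fell were *xbp1* and *atf5b* (ENSDARG00000077785, by 0.95). Of 17 targets of ATF4 and CHOP, the transcription factors of another branch, 0 rose and 3 fell in *mylz2*+ mutants, *nupr1b*, *VLDLR* (not called without mutant replicate 2 or 4, adjusted p of up to 0.0597 in edgeR) and *SLC3A2*, and 0 rose and 1 fell in *sox10*+ mutants, *PHGDH*. Of the targets in *sox10*+ cells, 7 had an unadjusted p under 0.05, with a median difference of -0.43 in edgeR. DESeq2's Wald test called 1 of them higher and 4 lower there. Library totals turned the *mylz2*+ counts to 8 higher and 0 lower for the sensors and factors, *xbp1* then being uncalled, and to 3 higher and 1 lower for the targets. That scaling moved the bulk of all genes up in *mylz2*+ mutants, as given above, so nothing is read about the lists from these counts.

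**Figure D4:**
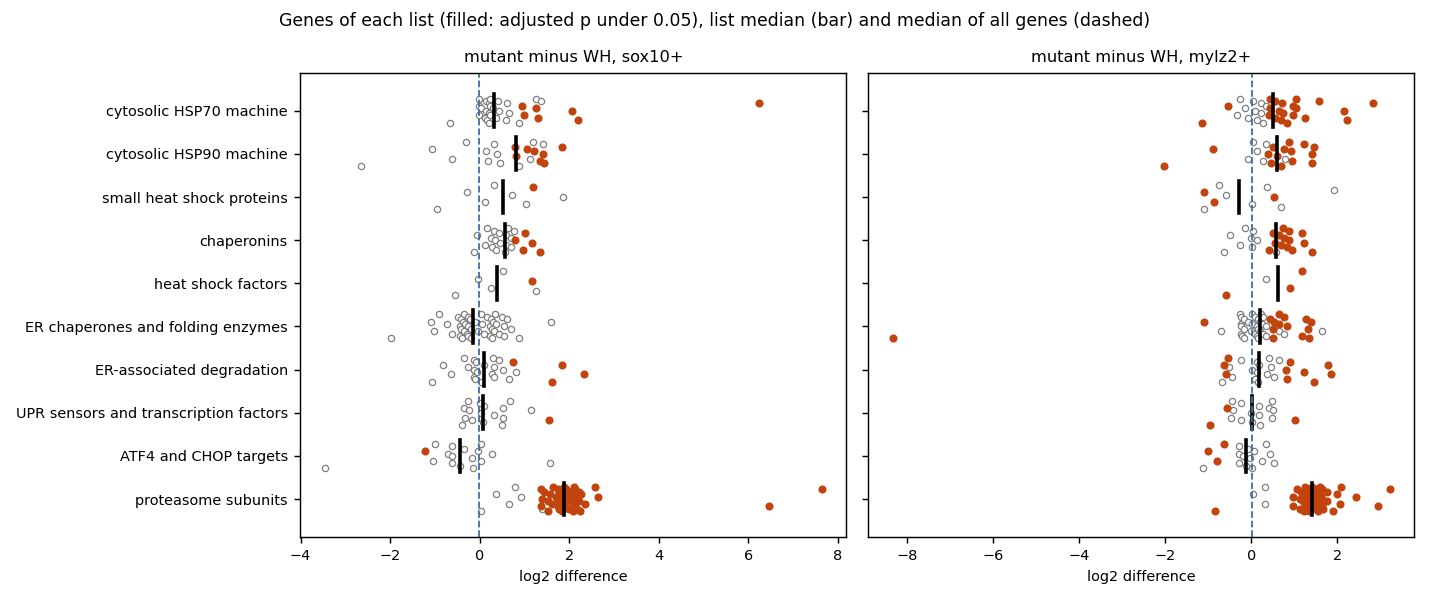
Log2 difference between mutants and WH of each gene tested in 10 lists (points; filled, adjusted p under 0.05), with the median of each list (black bar) and of all genes tested (dashed line), in *sox10*+ cells (left) and *mylz2*+ cells (right). The bars of the cytosolic HSP70, HSP90 and chaperonin lists lie between 0.32 and 0.81, but those of the small heat shock proteins at 0.53 (*sox10*+) and -0.29 (*mylz2*+). Those of ER chaperones, ER-associated degradation and sensors of the unfolded protein response lie between -0.15 and 0.19. In the same order of cell types, the bars of heat shock factors lie at 0.38 and 0.62, of ATF4 and CHOP targets at -0.43 and -0.12, and of the proteasome subunits at 1.88 and 1.41.

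Over the 14 libraries, after the mean of each cell type was taken from the log2 levels, the Pearson correlation of *hsp70l* with the other 6 genes was between -0.12 for *xbp1* and 0.54 for *hsp90b1*. The genes most like it of 16421 ranked were *MYC* (ENSDARG00000045695, r = 0.94), *FAM13A* (0.87), *CENPV* (0.82), *CHSY3* (0.81) and *NOC2L* (0.80). In *sox10*+ cells *MYC*, a growth-promoting transcription factor, was at 9.57, 15.7 and 30.1 TMM CPM in mutants of replicates 1, 3 and 4, against 25.6, 16.4, 12.6 and 15.8 in WH, so mutant replicate 4 and WH replicate 1 were again the highest of their genotypes and mutant replicate 1 the lowest. For *hspa5* the nearest genes were *pon1* (0.98), *GADD45B*, *ARIH2*, *UBE2K* and *B3GALNT2* (0.97 each), and among the 7 genes *hsp90ab1* (0.88) and *hspa8* (0.80). For *hsp90aa1.1* they were *tmem106a* and *CRLS1* (0.91 each) and *APLNR*, *GATAD2A* and *adgre10* (0.90 each). The correlations include the difference between genotypes, and the libraries of a cell type share their sort and preparation.

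Some markers of the sorted cells (the chondrocyte and neural crest list) and of other cells also moved with genotype. Of all genes tested in *sox10*+ cells, edgeR called 2.10% higher and 1.59% lower. These were 451 and 342 genes, where DESeq2's Wald test called 1108 higher and 1336 lower, so its counts are to be read against that larger number. In *sox10*+ mutants 8 of 13 neuron and glia markers fell and 0 rose (9 lower under DESeq2), with a median difference of -0.95, and they summed to 1166 to 1347 CPM of the library total in mutants and 2788 to 5002 in WH. Of 12 pigment cell markers 2 fell in edgeR and 7 in DESeq2's Wald test, with a median of -1.29, and their sums overlapped, at 5573 to 6335 in mutants and 4211 to 7402.5 in WH. Of 24 chondrocyte and neural crest markers 2 fell in edgeR and 15 in DESeq2, with a median of -0.71, and the list summed to 93940.1 to 130505 in mutants and 149812 to 213146 in WH. The sums of the neuron and glia list and of the chondrocyte and neural crest list thus did not overlap between genotypes. Of 9 epidermis markers 1 rose and 0 fell, and 0 of 8 blood and macrophage and 0 of 5 endothelium markers were called by edgeR or DESeq2, or had an unadjusted p under 0.05.

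In *mylz2*+ mutants 2 of 10 neuron and glia markers fell and 0 rose, 1 of 9 epidermis markers rose and 1 fell, and 1 of 8 blood and macrophage markers rose and 0 fell. Beside them, 10.8% of all genes were called higher and 11.7% lower in *mylz2*+ cells, and with so few genes nothing is read from these counts. DESeq2's Wald test called 2834 of all genes higher and 3141 lower in *mylz2*+ cells, against 2202 and 2385 by edgeR. Of 22 chondrocyte and neural crest and 5 endothelium markers 0 were called by edgeR or DESeq2, or had an unadjusted p under 0.05. Of 11 pigment cell markers edgeR called 0 and DESeq2 1 higher and 1 lower, with 1 at an unadjusted p under 0.05. Of 10 lens and photoreceptor markers tested 4 rose and 1 fell in edgeR, and 4 rose and 2 fell in DESeq2. This list summed to 285.8 to 551.4 CPM of the library total in mutants and 125.5 to 507.4 in WH, so genotypes overlapped. In *sox10*+ mutants 0 of 11 of the list were called by edgeR and 2 fell in DESeq2. There the list summed to 95.7 to 228.9 CPM in mutants and 159.5 to 3914.4 in WH. The 3914.4 was that of WH replicate 2 alone, with 279.6 or less in the other WH libraries. What this library's excess did to the *sox10*+ comparisons was not tested. Crystallin genes, which encode the main proteins of the eye lens, were the 4 that rose in edgeR in *mylz2*+ mutants. The crystallin genes were picked out after their values were seen, so nothing is read from their counts, medians or sums. In *mylz2*+ mutants 4 of 5 tested were called higher and 0 lower, with a median difference of 2.81. In *sox10*+ mutants 0 of 5 were called, with a median of -0.54. The 6 crystallin genes counted summed to 227.5 to 472 CPM of the library total in *mylz2*+ mutants and 24.0 to 81.5 in *mylz2*+ WH, and to 16.6 to 28.0 in *sox10*+ mutants and 24.8 to 40.5 in *sox10*+ WH. The part of other cell types in the levels of the 7 genes was not tested.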

How the data were processed

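Cranial *sox10*+ and *mylz2*+ cells were sorted, cDNA was made with the SMART-Seq HT kit and libraries with Nextera XT. Alignment by the authors used STAR and the GRCz11 assembly, and they deposited raw counts per Ensembl gene, not normalized; the counting tool and strandedness are not given in the sources used here. Columns were assigned to samples by name; 1 *mylz2*+ mutant is replicate 2 in its description, used here, and 3 in its title.

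Counts were filtered with edgeR's default filter by group, scaled by TMM and tested with robust quasi-likelihood fits (edgeR 4.0.16, R 4.3.3), for each cell type alone and over 14 libraries for the interaction and the cell types. Intervals are 95%. Alternatives were DESeq2 1.42.0, other scalings and filters, a block for the replicate number, the fit without each library and, added after seeing the data, a fit without the robust option and the lists without each library. The tests were tested on simulated data.

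Symbols came from a table that named 29201 of 32520 identifiers. Besides the 7 genes and *psmb1*, the text names up to 3 genes per list, cell type and direction with the largest difference among called genes averaging 100 counts or more in a genotype, without overlap, and the 5 genes most correlated with *hsp70l*, *hspa5* and *hsp90aa1.1* (log2 TMM CPM, prior count 2). Close copies and genes named as chosen later are exceptions, and some genes under the rule are given only in the counts. The members and lists were chosen with earlier results of these data known. Promoter and protein sequences were not analysed here. Intervals cover the spread among these samples and floors counting error only, as amplified reads are not independent molecules. Some marker genes of the lists are not reported here.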

Additional observations from a re-analysis of the deposited data

Results flagged for a closer look

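The effect of the mutation differed between the cell types for 6 genes of the pathway lists in the interaction test of edgeR over the 14 libraries, given here as *mylz2*+ effect minus *sox10*+ effect. Of all 23232 genes, 0.508% were called positive and 1.02% negative, and nothing is read from the number 6. The marker lists, not counted here, had 1 pigment cell, 3 neuron and glia and 3 lens and photoreceptor genes called positive and 1 epidermis gene negative. For *dnajb6b* (ENSDARG00000020953) the difference was -2.53 (adjusted p = 0.00231), with 26.6, 25.2 and 19.5 TMM CPM in *mylz2*+ mutants, against 46.4, 61.5, 50.4 and 52.1 in *mylz2*+ WH, and 21.1, 24.3 and 13.8 in *sox10*+ mutants, against 7.71, 7.42, 5.10 and 10.2 in *sox10*+ WH. This J protein gene was lower in every *mylz2*+ mutant and higher in every *sox10*+ mutant than in the WH libraries of its cell type, although its *sox10*+ difference of 1.38 was not called alone (adjusted p = 0.0594). For *FKBP5* (ENSDARG00000028396) it was -1.41 (adjusted p = 0.00213), with differences of -2.02 in *mylz2*+ and -0.62 in *sox10*+ cells.

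For *SERPINH1* (ENSDARG00000019949) the difference of effects was 1.09 (adjusted p = 0.0426, edgeR), and leaving out a library lost the call in 11 of 14 fits, with an adjusted p of up to 0.117. For *PHGDH* (ENSDARG00000001873), the first enzyme of serine synthesis, it was 1.24 (0.0326), lost in 7 of 14 such fits with values of up to 0.0857. The proteasome subunit gene *PSMD2* is listed under a pair of identifiers, which may share reads. Its effects differed by -0.89 (ENSDARG00000099653, adjusted p = 0.0473) and -0.86 (ENSDARG00000103190, 0.0452), each lost in 11 of 14 such fits with values of up to 0.115. For the 7 chaperone and *xbp1* genes, *psmb1* and the share of counts of the 7 genes, no library lay far from the rest of its group by Dixon's criterion in 18 examined groups of 4, all WH. Chance meets this criterion in about 5% of groups, and the mutant groups of 3 and the marker sums were not examined.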

How the results depend on the processing

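In *sox10*+ cells edgeR called 0 of the 7 genes under each of its settings and DESeq2 called 1; in the interaction DESeq2 and library totals called 1 each. Of all genes, the *sox10*+ comparison called 451 higher and 342 lower, and in all 2444 under DESeq2, 1310 where each library had to hold 10 counts, 189 with the replicate block, 291 at an adjusted p under 0.01 and 321 to 1020 with a library left out (321 to 461 without mutant replicate 1, 3 or 4 or WH replicate 2). The *mylz2*+ comparison called 2628 at an adjusted p under 0.01. The interaction called 118 positive and 238 negative, and in all 1328 under DESeq2, 608 under the filter of 10 counts, and 179 to 542 with a library left out.

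Some signs turned. Under library totals *hsp70l* in *sox10*+ cells was at 0.11, the interaction of *hspa8* at 0.08, *hspa5* between cell types in WH at -0.1 and *hsp90b1* between cell types in mutants at -0.59. The interaction of *hsp90aa1.1* was -0.02 under DESeq2 and under RLE factors, -0.002 without the 100 most abundant genes in the scaling and -9e-05 with upper-quartile factors. With a library left out it was -0.42 to 0.58, *hsp70l* in *sox10*+ cells was -0.4 to 0.21 and *psmb1* in *sox10*+ cells was -0.08 to 0.16. The cause was not tested.

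Among all genes in *sox10*+ cells, DESeq2 called 1108 higher and 1336 lower, where edgeR called 451 and 342. In *sox10*+ cells DESeq2 called 1 gene lower in each of the HSP90 list, ER-associated degradation and the 4 cytosolic lists together, 5 lower of the ER chaperones, 4 higher of the sensors and factors, 1 higher and 4 lower of the ATF4 and CHOP targets and 2 higher of the small heat shock proteins, as did library totals for the last. In *mylz2*+ cells library totals called 21 ER chaperones, 13 genes of ER-associated degradation, 8 sensors and factors, 3 ATF4 and CHOP targets and 2 small heat shock proteins higher, and 1 each of the HSP70 list, small heat shock proteins and ATF4 and CHOP targets lower, with 0 lower in ER-associated degradation, sensors and factors and heat shock factors. These counts go with the shift of all genes under that scaling and are not read as results about the lists. The 4 cytosolic lists had 9 to 22 genes called higher in *sox10*+ mutants with a library left out.

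Libraries of the same number did not deviate together (correlations of -0.0419 to 0.0575), and the numbers were not taken as pairs. The paper states that its siblings were matched by clutch, but the labels do not say which libraries share a clutch. These correlations cannot show that no clutch was shared. With the replicate block *hspa8* in *mylz2*+ cells was at 0.39 and not called (edgeR, adjusted p = 0.208), and 4 of the 7 genes were called there.

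Each group had 3 or 4 replicates, and what sets the spread between them was not tested. Each comparison rests on sorted pools that share one dissociation, and no unsorted tissue was analysed here.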
